A study of Mus musculus with 24 samples.

Results

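Gkn3 and 8 further genes of arterial endothelium were followed across 24 sorted brain endothelial libraries. The 9 genes were Gkn3, Bmx, Sema3g, Efnb2, Hey1, Gja4, Gja5, Vegfc and Mgp, found by symbol among 53465 listed genes. Gkn3 was placed on the list because its level was strongly lower in mutants, and the question was whether the other arterial genes followed it. The genotype difference of Gkn3 is therefore given as a description, with no test.

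Each library held RNA of CD31-positive cells sorted from the brain of 1 C57BL/6J mouse. Controls were Bmal1fl/fl, with both copies of the clock gene Bmal1 floxed but intact, and mutants were Bmal1fl/fl; Tie2cre, in which Cre is made from the Tie2 promoter of endothelial cells. The Tie2 promoter is active in endothelium of all vessel types and in some blood cells. Mice were kept in light-dark cycles, and brains were taken every 4 h from ZT2 to ZT22 (Zeitgeber time, hours after lights on), with 2 mice per genotype and time and so 12 controls and 12 mutants. Age and sex of these mice are not in the labels.

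Brain arteries, capillaries and veins carry endothelial cells of different identity along one tree. Arterial identity is set in large part by VEGF and Notch signalling, whose targets include Hey1 and Efnb2, and arterial cells are coupled by the connexins Gja4 and Gja5. Gkn3 encodes a secreted protein of the gastrokine family that marks arterial endothelium in the mouse brain.

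The sequence just before the start of Gkn3 is shown because Gkn3 is the member that chose the list, and that of Bmx because it held the single motif match. RefSeq promoter windows of build GRCm38.p6 were found for 7 of the 9 members, and Hey1 and Mgp had none. The 250 bases before each start were searched on both strands for the E-box CACGTG, the site of Bmal1 and its partner Clock, and for TGGGAA, the core site of the Notch factor Rbpj. The Gkn3 stretch is chr6:87388936-87389185 and the Bmx stretch chrX:164258194-164258443, both on the minus strand, written 5′ to 3′ with the match in capitals.
Gkn3: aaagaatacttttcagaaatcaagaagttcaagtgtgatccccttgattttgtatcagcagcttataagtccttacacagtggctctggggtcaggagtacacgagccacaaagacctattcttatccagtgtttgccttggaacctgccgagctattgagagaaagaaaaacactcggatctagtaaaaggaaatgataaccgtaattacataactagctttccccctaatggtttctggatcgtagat
Bmx: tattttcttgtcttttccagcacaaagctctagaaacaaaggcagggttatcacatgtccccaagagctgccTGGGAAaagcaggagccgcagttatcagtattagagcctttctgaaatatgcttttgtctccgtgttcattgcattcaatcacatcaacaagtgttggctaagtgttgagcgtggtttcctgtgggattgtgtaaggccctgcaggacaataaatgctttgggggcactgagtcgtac

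None of the 7 windows held CACGTG, which 6.02% of the 32851 windows of all genes held. TGGGAA was found in 1 of the 7, Bmx, at 178 bases before the start, and in 21.6% of all windows. A match is a description and no match says only that these letters were not in this window.

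All 9 members were protein-coding genes in GENCODE M21 (GRCm38) and all passed the filter of 5 or more normalized reads in at least 6 mice of a genotype, which kept 15493 genes. None was at 0 in any mouse. Mgp, matrix Gla protein, an inhibitor of vessel calcification made by endothelium and smooth muscle (chromosome 6, 136872435 to 136875823), had the highest level per length, 790.1 normalized reads per kilobase of exon in controls. Sema3g, a secreted semaphorin (chromosome 14, 31217860 to 31230352), followed at 280.5 and Efnb2, the transmembrane ligand of the venous receptor EphB4 (chromosome 8, 8617434 to 8661242), at 133.1.

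Hey1, a transcriptional repressor downstream of Notch (chromosome 3, 8663359 to 8667256), stood at 108.9 reads per kilobase in controls. Gkn3 (chromosome 6, 87383256 to 87388935) at 104.6 and Bmx, a Tec-family tyrosine kinase (chromosome X, 164192842 to 164258193), at 100.6 were close to it. The connexin gene Gja4 (chromosome 4, 127311421 to 127314039) stood at 85.6. Vegfc, a growth factor best known for lymphatic vessels (chromosome 8, 54077606 to 54187096), at 35.4 and the connexin gene Gja5 (chromosome 3, 96904693 to 97077416) at 12.0 were lowest.

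Neighbours in this order were compared within mice, Gkn3 left aside, by an exact two-sided sign-flip permutation test on log2(reads + 1) per kilobase, with 14 comparisons adjusted together. In controls the steps from Mgp to Sema3g (adjusted p = 0.00195, higher in 11 of 12 mice), Sema3g to Efnb2, Gja4 to Vegfc and Vegfc to Gja5 (each adjusted p = 0.00137, in 12 of 12 mice) exceeded the spread between mice. The steps from Efnb2 to Hey1, Hey1 to Bmx and Bmx to Gja4 were within that spread (adjusted p = 0.185, 0.562 and 0.371, exact test). In mutants the same 8 genes stood in the same order, and there Efnb2 to Hey1 (adjusted p = 0.0228) and Hey1 to Bmx (adjusted p = 0.0410) were also separated in the exact test. Gkn3 stood at place 5 of 9 in controls and at place 8 in mutants, with 21.9 reads per kilobase. Gja5 shared 165 exon bases with Gpr89 on the opposite strand, and the library kit keeps strand.

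Before the genotypes are compared, some libraries need to be set apart. Totals lay between 6136404 and 6648311 normalized reads. The 8 libraries of ZT6 and ZT18 carry consecutive library numbers of their own, had microglial marker sums of 1218 to 2015 reads against 10960 to 29123 in the other 16, and higher sums over 10 endothelial markers (90670 to 97990 against 55667 to 85341). Their share of mitochondrial reads was 2.68 to 3.90% against 5.78 to 17.4% in the other 16. These times and this number series cannot be told apart. None of the 9 smooth muscle markers was at 0 in all mice, and their sums ranged from 1686 to 9850 reads in controls and from 1369 to 9151 in mutants. All ZT6 and ZT18 libraries, and the controls at ZT2 and ZT10, shared an i5 index that no other library had, so that at ZT2 and ZT10 index and genotype coincide. Control ZT22 replicate 2 and mutant ZT10 replicate 2 had the lowest smooth muscle sums of their genotypes (1686 and 1369), and the first had choroid plexus markers at 65508 reads against 1955 to 18935 in the other 23. The targeted gene, listed as Arntl, ranged from 1 to 468 reads in controls with time and from 81 to 354 in mutants. A count over the whole gene includes undeleted exons, so it does not check the deletion.

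The Gkn3 mean was lower in mutants at every time. Controls ranged from 10 to 206 normalized reads with a median of 66.0 and mutants from 5 to 38 with a median of 18.5. All 12 mutants were below the control median and 9 of 12 controls were above the highest mutant, while the groups overlapped through 3 controls with 10, 19 and 35 reads. The means were 89.5 ± 63.9 and 18.8 ± 9.11 (SD, n = 12 each), and the fitted log2 fold change was -2.28, that is 0.206 of the control level.

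By time, the 2 controls had 66 and 206 reads at ZT2 and the 2 mutants 14 and 20. At ZT6 the controls had 60 and 66 and the mutants 38 and 28, the smallest difference of the 6 times. At ZT10 the values were 19 and 115 against 19 and 6. The lower control thus reached no higher than the upper mutant at ZT10, and the same held at ZT18, where controls had 190 and 10 and mutants 5 and 22. At ZT14 controls had 54 and 139 and mutants 16 and 25, and at ZT22 controls had 114 and 35 and mutants 14 and 18. Both mutants were below both controls at 4 of 6 times. Gkn3 was the member with the largest coefficient of variation in controls, 71.4%.

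**Figure D1:**
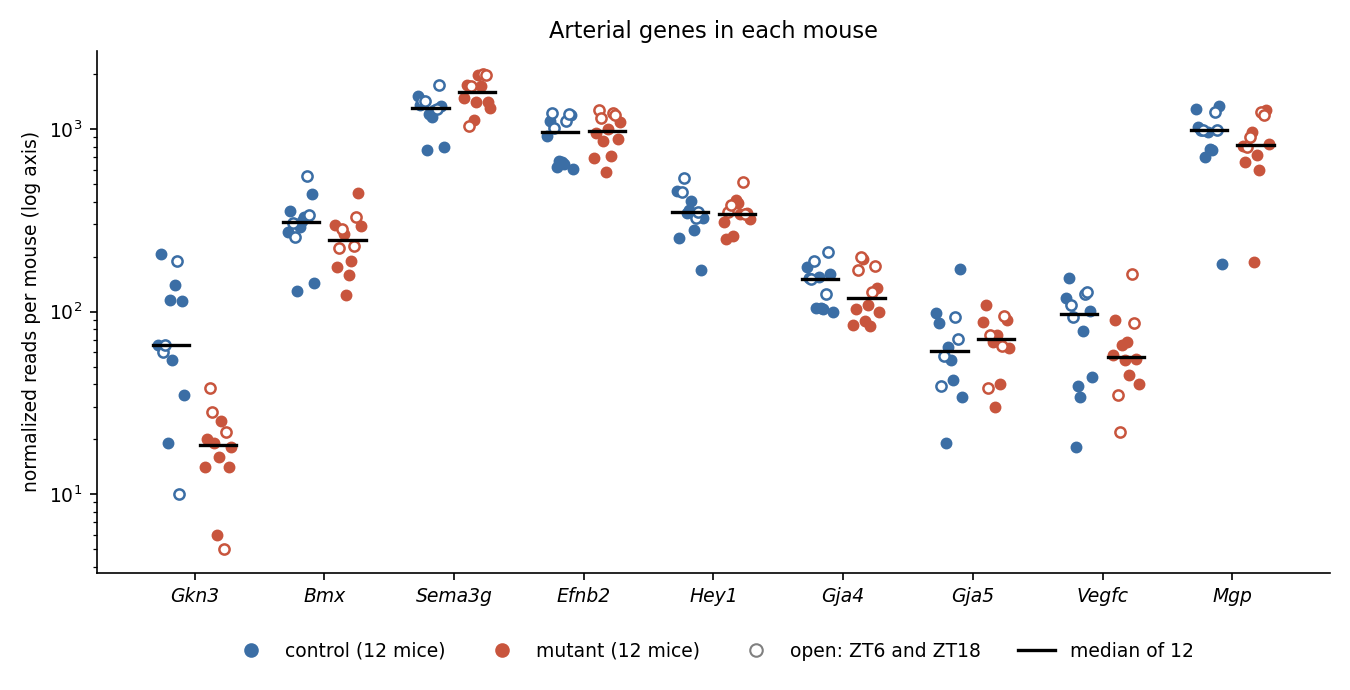
Normalized reads of the 9 genes in each mouse on a log axis, blue for 12 controls and red for 12 mutants, with open points for ZT6 and ZT18 and a black line at the median. Gkn3 medians are 66.0 and 18.5, whereas the groups of the other 8 genes overlap over most of their range.

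None of the 8 members other than Gkn3 passed the threshold between genotypes. Of the 8, 0 had an adjusted p under 0.05 in edgeR's quasi-likelihood test over all genes, against 0.271% of all genes tested (42 of 15493). One of the 8 had an unadjusted p under 0.05, Sema3g, against 6.95% of all genes. Sema3g was higher in mutants, as were 3.78% of all genes at that threshold. A log2 fold change below 0 was found in 4 and above 0 in 4, with a median of -0.08 beside 0.00 over all genes (49.4% of all genes were below 0). DESeq2's Wald test also called 0 of the 8, against 0.639% of all genes. It had 1 of the 8 at an unadjusted p under 0.05, against 1348 of 15493 genes. The part of arterial cell number and of RNA per arterial cell in these values was not tested.

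Among secreted and membrane ligands, Sema3g had 768 to 1736 reads in controls (median 1312.5) and 1044 to 1991 in mutants (median 1597.0). The ranges overlapped, with 4 mutants above the highest control and 2 controls below the lowest mutant. The mean was higher in mutants at 5 of 6 times, and the log2 fold change was 0.30 (SE 0.09, 95% interval 0.11 to 0.49, edgeR p = 0.00286, adjusted p = 0.282).

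Efnb2 had 603 to 1218 reads in controls (median 962.0) and 579 to 1274 in mutants (median 972.0), so that both groups covered nearly one range. Its log2 fold change was 0.10 (95% interval -0.11 to 0.30, edgeR adjusted p = 0.917).

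Vegfc had 18 to 152 reads in controls (median 97.0) and 22 to 161 in mutants (median 56.5). Of the mutants, 11 of 12 were below the control median, yet the ranges coincided and the log2 fold change of -0.38 (95% interval -0.92 to 0.16) had an edgeR adjusted p of 0.845. At ZT6 controls had 109 and 93 reads and mutants 35 and 22, and at ZT10 controls had 18 and 39 and mutants 66 and 54. The genotype difference in rhythm of Vegfc did not pass the threshold (edgeR p = 0.151, adjusted p = 1.00).

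The kinase gene Bmx had 130 to 555 reads in controls (median 310.0) and 124 to 444 in mutants (median 247.5). Its mean was lower in mutants at 5 of 6 times, and 10 of 12 mutants lay below the control median, with overlapping ranges. The log2 fold change was -0.32 (SE 0.18, 95% interval -0.69 to 0.05, edgeR p = 0.0908, adjusted p = 0.798).

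Hey1, the Notch target, had medians of 349.5 and 344.5 reads in controls and mutants, ranges of 170 to 540 and 251 to 512, and a 95% interval of -0.26 to 0.26 around a log2 fold change of 0.00. The connexin gene Gja4 had 99 to 211 reads in controls (median 151.0) and 83 to 199 in mutants (median 118.5), a log2 fold change of -0.16 (95% interval -0.48 to 0.17). Gja5 had 19 to 172 and 30 to 109 reads (medians 60.5 and 71.0), and the log2 fold change was 0.05 (95% interval -0.46 to 0.55). All 3 ranges overlapped widely, and the edgeR adjusted p-values were 0.999, 0.914 and 0.992.

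Mgp had 183 to 1337 reads in controls (median 987.0) and 188 to 1266 in mutants (median 816.0). The 2 lowest values, 183 and 188, came from control ZT22 replicate 2 and mutant ZT10 replicate 2. The log2 fold change was -0.17 (95% interval -0.60 to 0.25, edgeR adjusted p = 0.932).

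A missed threshold does not show that levels were equal, but the intervals bound the size. In this edgeR fit the lowest bound among the 8 genes was -0.92, for Vegfc, and the highest 0.55, for Gja5. The Vegfc log2 fold change itself ran from -0.52 to -0.25 with a mouse left out and from -0.85 to -0.15 under other alternatives. Without both low libraries, an alternative chosen after seeing the data, 0 of the 8 were called, against 35 of 15493 genes. Gkn3 then stood at -2.28. With the smooth muscle marker sum as a covariate, also chosen after seeing the data, 0 of the 8 were called, against 51 of 15493 genes. Gkn3 stood at -2.21 with that covariate. Per 1000 reads of the other 8 members, Gkn3 had a median of 15.5 reads in controls (1.99 to 45.9) and 4.26 in mutants (0.899 to 9.65). The summed reads of the other 8 were 2232 to 5037 in controls and 2883 to 5563 in mutants, with means of 4090 ± 932 and 4261 ± 750 (SD, n = 12 each).

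**Figure D2:**
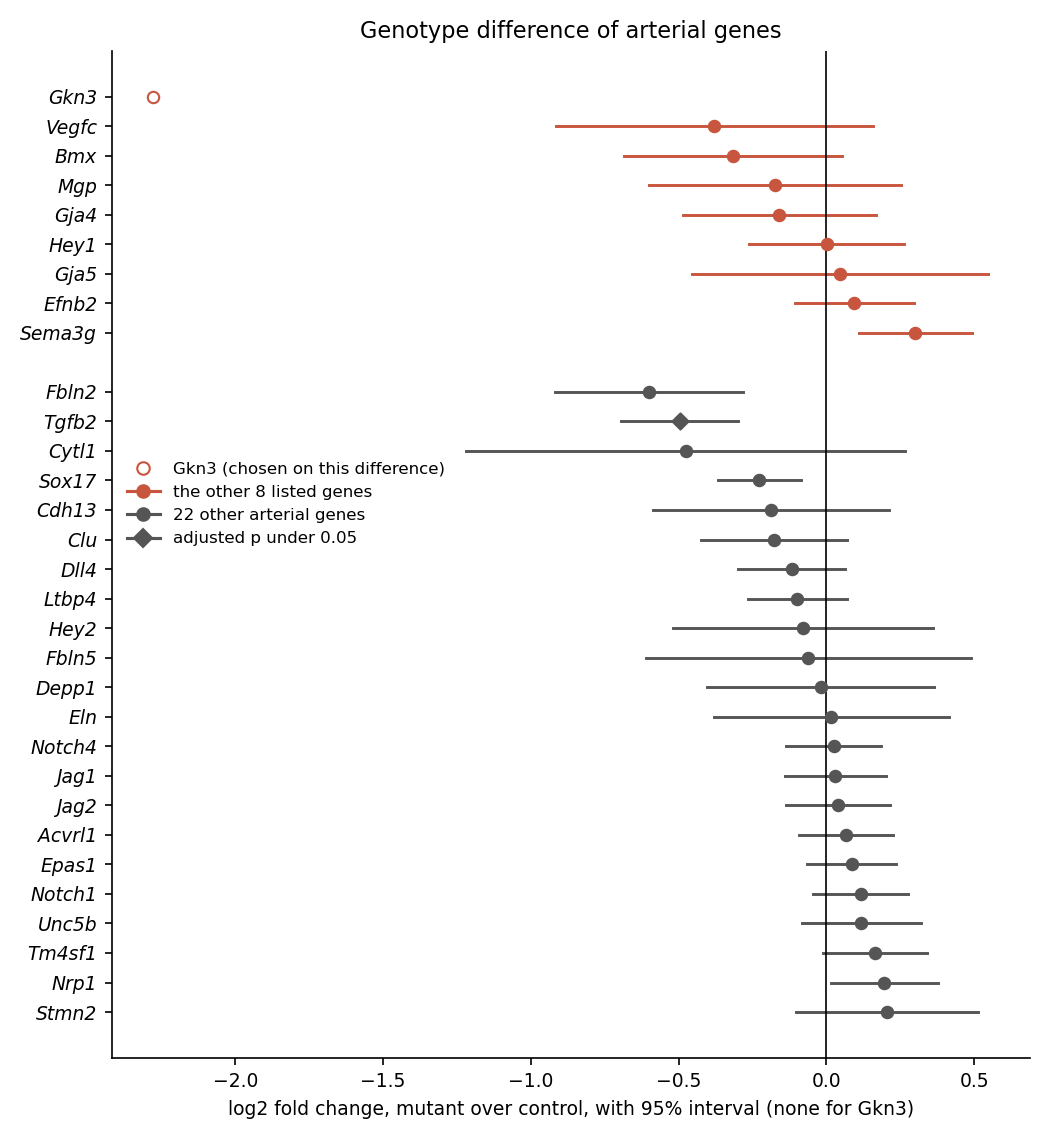
Log2 fold change between mutants and controls (edgeR, time point as a factor, 12 mice per genotype), with its 95% interval for all but Gkn3, for the 9 genes in red and 22 other arterial genes in grey, with a diamond for an adjusted p under 0.05 in all but Gkn3. Gkn3, chosen on this difference, is an open circle at -2.28 with no interval and no test marked, and of the genes tested Tgfb2 at -0.50 is the 1 diamond.

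A wider set of 22 arterial genes (Notch ligands and receptors, transcription factors, matrix genes, growth factor ligands and receptors and other arterial markers, all kept) was examined in the same fit. Of these, 1 was called lower and 0 higher, against 0.271% of all genes called, and 3 lower and 1 higher had an unadjusted p under 0.05, against 6.95%. With the i5 index as a covariate 0 were called and 9 of the 22 had an unadjusted p under 0.05, against 7.22% of all genes. In the fit without it, the 22 split evenly, with 11 below and 11 above 0 and a median log2 fold change of 0.00. The directions of the 22, and of the 9 under 0.05, were not counted in the fit with the i5 covariate. Tgfb2, a ligand of the TGF-β family, fell from 1226 ± 231 to 884 ± 234 reads (SD, n = 12 each), a log2 fold change of -0.50 (SE 0.10, edgeR adjusted p = 0.0115). With the i5 covariate it stood at -0.44 (SE 0.12, edgeR adjusted p = 0.30). Within the ZT6 and ZT18 mice, all of 1 index, the log2 fold change of Tgfb2 was -0.26, and within the ZT14 and ZT22 mice, of the other index, it was -0.60, with adjusted p-values of 0.919 and 0.549 on 8 mice each.

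Markers of other cell types were read in the same fit. Over 12 lists with 105 genes tested, edgeR called 0 and had 16 at an unadjusted p under 0.05, against 6.95% of all genes, while DESeq2 called 1, the capillary gene Tfrc, against 0.639%. Of 12 capillary markers, 11 had log2 fold changes below 0, with 4 lower and 1 higher in mutants at an unadjusted p under 0.05. Over all genes 49.4% of fold changes were below 0. They were below 0 in 8 of 8 astrocyte markers (2 at an unadjusted p under 0.05), 7 of 7 oligodendrocyte markers (3) and 6 of 6 red blood cell markers (3). All 10 endothelial markers had fold changes above 0 (2 at an unadjusted p under 0.05), with a median of 0.11, and 11 of 15 venous markers were below 0 (1 at an unadjusted p under 0.05, higher). Smooth muscle, pericyte, fibroblast, microglial, neuronal and choroid plexus markers had 0 at an unadjusted p under 0.05. The part of these shifts in the members' values was not tested.

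Among the 22 other arterial genes, the next on the lower side after Tgfb2, by p-value, were Fbln2 and Sox17. Fbln2, an extracellular matrix protein, was at -0.60 (SE 0.16, edgeR adjusted p = 0.119). Sox17, a transcription factor of arterial identity, was at -0.23 (SE 0.07, edgeR adjusted p = 0.270). Leaving out control ZT18 replicate 2 brought Fbln2 to an adjusted p of 0.0282. On the higher side were Nrp1, a co-receptor for VEGF, at 0.20, the membrane protein gene Tm4sf1 at 0.16 and the receptor gene Notch1 at 0.12. None of these 3 was called (edgeR adjusted p = 0.646, 0.754 and 0.840). Under the 13 other alternatives Nrp1 ran from 0.12 to 0.39, Tm4sf1 from 0.11 to 0.24 and Notch1 from 0.046 to 0.31. Fbln2 ran from -0.76 to -0.31 and Sox17 from -0.27 to -0.16 there.

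Levels by time of day were examined next, since the study sampled a full day. With meta2d, a combination of the rank-based JTK_CYCLE test and the Lomb-Scargle periodogram for a 24-h period, 0 of the 9 members had an unadjusted p under 0.05 in controls (2.43% of all genes did) or in mutants (2.27%). The lowest p in controls was 0.471, for Vegfc, and in mutants 0.350, for Bmx, and all adjusted p-values of the members were 1. With meta2d no gene at all passed adjustment, the lowest adjusted p over all genes being 0.153 in controls and 0.325 in mutants. The edgeR cosinor also called 0 of 9 in either genotype, against 14 of 15493 genes in controls and 0 in mutants. It had 0 members at an unadjusted p under 0.05, which 4.43% of all genes had in controls and 4.16% in mutants. For the difference in rhythm between genotypes, 0 of 9 had an unadjusted p under 0.05 (4.26% of all genes did), with the lowest p of 0.134 for Hey1, and 0 genes in all passed adjustment in edgeR (1 by DESeq2's likelihood ratio test).

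The unadjusted p-values moved most with 1 library. Without control ZT22 replicate 2, 5 of 9 members (Gja5, Mgp, Efnb2, Vegfc and Bmx) had an unadjusted p of 0.00881 to 0.0239 in the edgeR cosinor, against 4.40% of all genes. No member passed adjustment there (lowest adjusted p = 0.799), against 17 of 15493 genes. Leaving out any other mouse put 0 to 1 members under 0.05 in controls, against 557 to 863 of 15493 genes. In mutants it put 0 to 2 under 0.05, against 477 to 808 genes. The 2 were reached without mutant ZT2 replicate 2, where 595 genes were under 0.05. In control ZT22 replicate 2, Efnb2, Gja4 and Mgp were the lowest of the 12 controls, and 7 of 9 members were among the 3 lowest values of their gene. In mutant ZT10 replicate 2, Bmx, Efnb2, Gja5 and Mgp were the lowest of the 12 mutants. The part of the other cell types in these values was not tested.

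**Figure D3:**
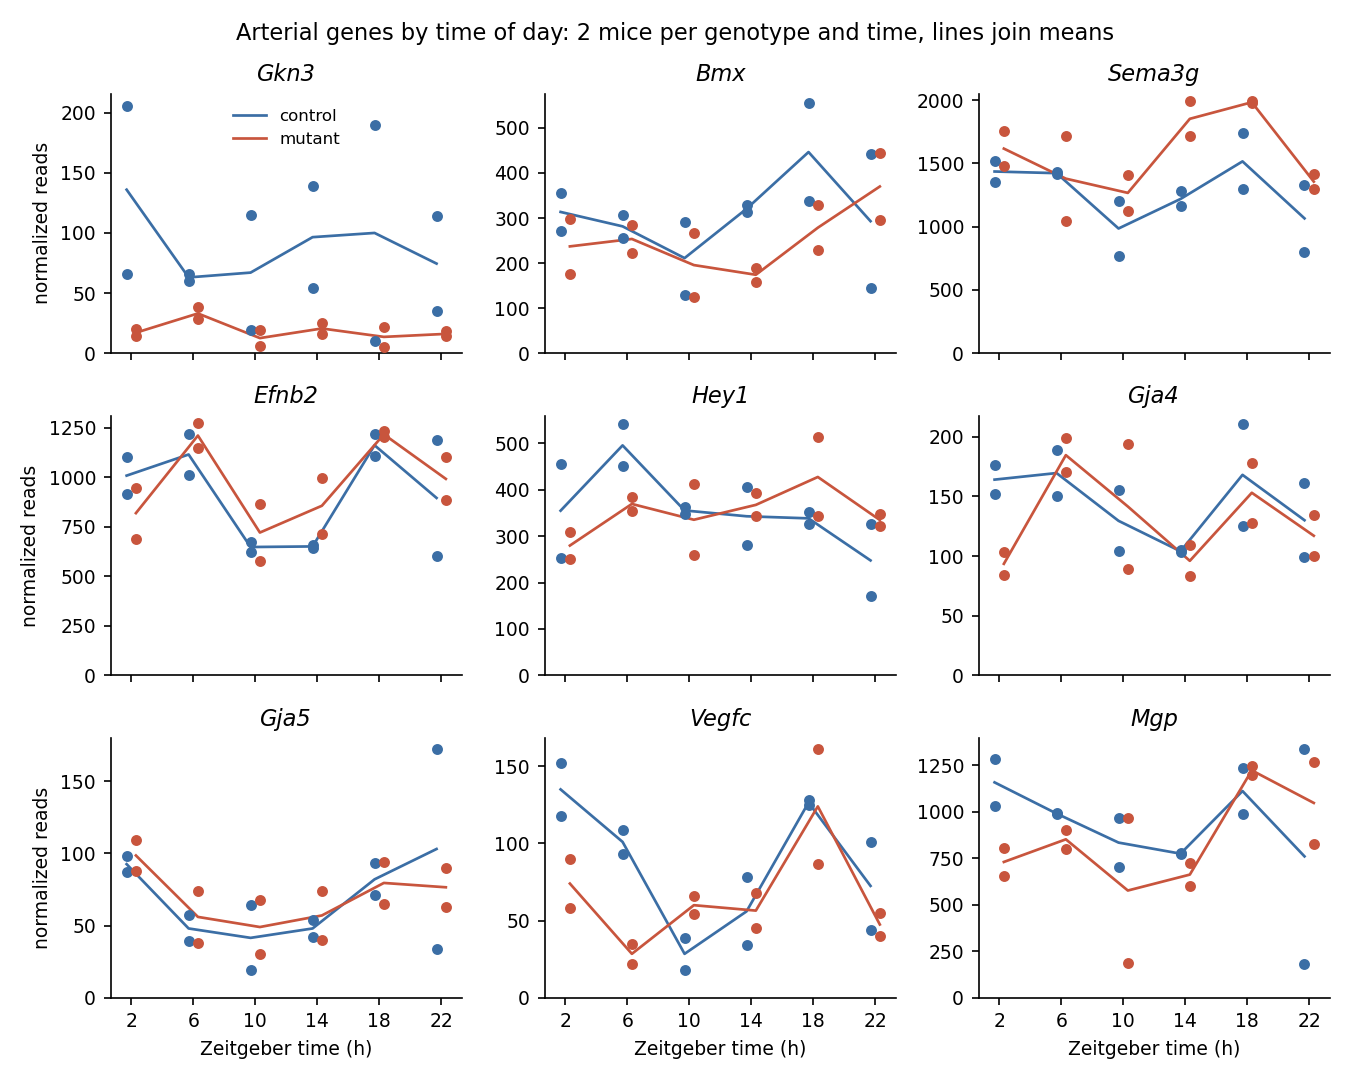
Normalized reads (linear axes from 0) against Zeitgeber time in hours, 2 mice per genotype and time as points, with lines joining the means of controls in blue and mutants in red. The Gkn3 mean is lower in mutants at 6 of 6 times, and the split control pair of Mgp at ZT22 has 183 as its lower value.

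Several members had higher means in the ZT6 and ZT18 libraries, which also had the higher endothelial sums and the lower mitochondrial shares given above. Efnb2 had 1010 to 1274 reads in these 8 and 579 to 1187 in the other 16, with log2 ratios of means of 0.51 in controls and 0.52 in mutants. Gja4 had log2 ratios of 0.36 and 0.59, Hey1 of 0.36 and 0.27. Gja5 was close to level between these libraries and the rest, with ratios of -0.13 and -0.05. Gkn3 had ratios of -0.20 in controls and 0.49 in mutants, with the mutant maximum of 38 reads at ZT6. Whether the genotype difference itself differed between the 2 sets was tested in edgeR, and 0 of 9 members had an unadjusted p under 0.05 (4.38% of all genes did), the lowest being 0.207 for Vegfc. In that test 0 of 15493 genes passed adjustment.

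Members were finally compared mouse by mouse, on log2(reads + 1) after the mean of each genotype and time was taken out. This removes the difference that chose Gkn3. Since 2 mice make each mean, the 24 deviations hold 12 independent values, and the genes share library composition. Bmx was the member most like Gkn3, with Pearson r = 0.69, at rank 62 of 9895 genes with a mean of 50 or more reads. The widest Gkn3 pair, the ZT18 controls with 190 and 10 reads, had Bmx at 555 and 338, and r without it was not computed. With the means left in, Bmx had 0.59 over the 12 controls and 0.26 over the 12 mutants, where Gja4 had 0.39. Gja5 followed with 0.50 and Mgp with 0.41. Sema3g had 0.02 and Hey1 -0.62, the lowest of the members. The 5 genes most like Gkn3 in the whole table were Smurf2 (0.86), Nek9 (0.84), St7l (0.80), Nckap1 (0.79) and Chtf8 (0.79), none of which was on the arterial lists. Of the 22 other arterial genes the nearest were Fbln2 (0.66, rank 90) and Ltbp4 (0.62, rank 143). Tgfb2, Cdh13, Unc5b and Clu were below 0, with Clu lowest at -0.50. Smooth muscle genes with that mean ran from 0.47 for Mylk to 0.64 for Des (rank 103).

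Leaving Gkn3 and Hey1 out, all 21 pairs of members had r above 0, with a median of 0.51, while the median over all pairs of these 9895 genes was 0.01. Bmx and Mgp had 0.81, Gja5 and Mgp 0.80. All 7 pairs of Hey1 with these genes were below 0 (median -0.42). With the sum over the 22 other arterial genes, r ran from 0.39 for Sema3g to 0.82 for Mgp in 8 members. There Gkn3 had 0.48 and Hey1 -0.71. With the venous marker sum, r ran from 0.36 for Gkn3 to 0.95 for Mgp in 8 members and was -0.65 for Hey1. With the smooth muscle sum it ran from 0.42 for Sema3g to 0.81 for Gja5 and was -0.74 for Hey1, and Gkn3 had 0.55. With pericyte and fibroblast sums all 9 members lay between -0.24 and 0.39. With the sum over 10 endothelial markers r ran from 0.45 for Gkn3 to 0.84 for Gja5 in 8 members and was -0.47 for Hey1. With the mitochondrial share the 8 lay between -0.78 for Efnb2 and -0.23 for Gkn3, and Hey1 had 0.56. With the capillary sum Gkn3 had 0.52 and the others -0.40 to 0.24. The part of these measures in the members' values was not tested. Without the control ZT22 and mutant ZT10 mice, 19 of the 21 pairs were above 0 with a median of 0.25, and Hey1 had 4 of 7 pairs above 0. In these 20 mice Gkn3 had r = 0.66 with Bmx, 0.39 with Gja5, 0.22 with Mgp and -0.54 with Hey1. With the venous sum Mgp had 0.54, and the 8 members other than Hey1 ran from -0.30 for Efnb2 to that value. With the smooth muscle sum they ran from -0.02 for Mgp to 0.63 for Gja5, with the endothelial sum from 0.32 for Gkn3 to 0.73 for Gja5 and with the mitochondrial share from -0.58 for Sema3g to 0.10 for Gkn3, while Hey1 had -0.04, -0.47, -0.11 and 0.08 with these 4 measures. With the capillary sum Gkn3 had 0.78, Bmx 0.68, Vegfc 0.51 and Mgp 0.34, and the others ran from -0.36 for Hey1 to 0.26 for Gja5. With the sum over the 22 other arterial genes, the 8 members other than Hey1 ran from 0.14 for Gja4 to 0.80 for Vegfc. Gkn3 had 0.33 and Hey1 -0.39 with that sum.

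**Figure D4:**
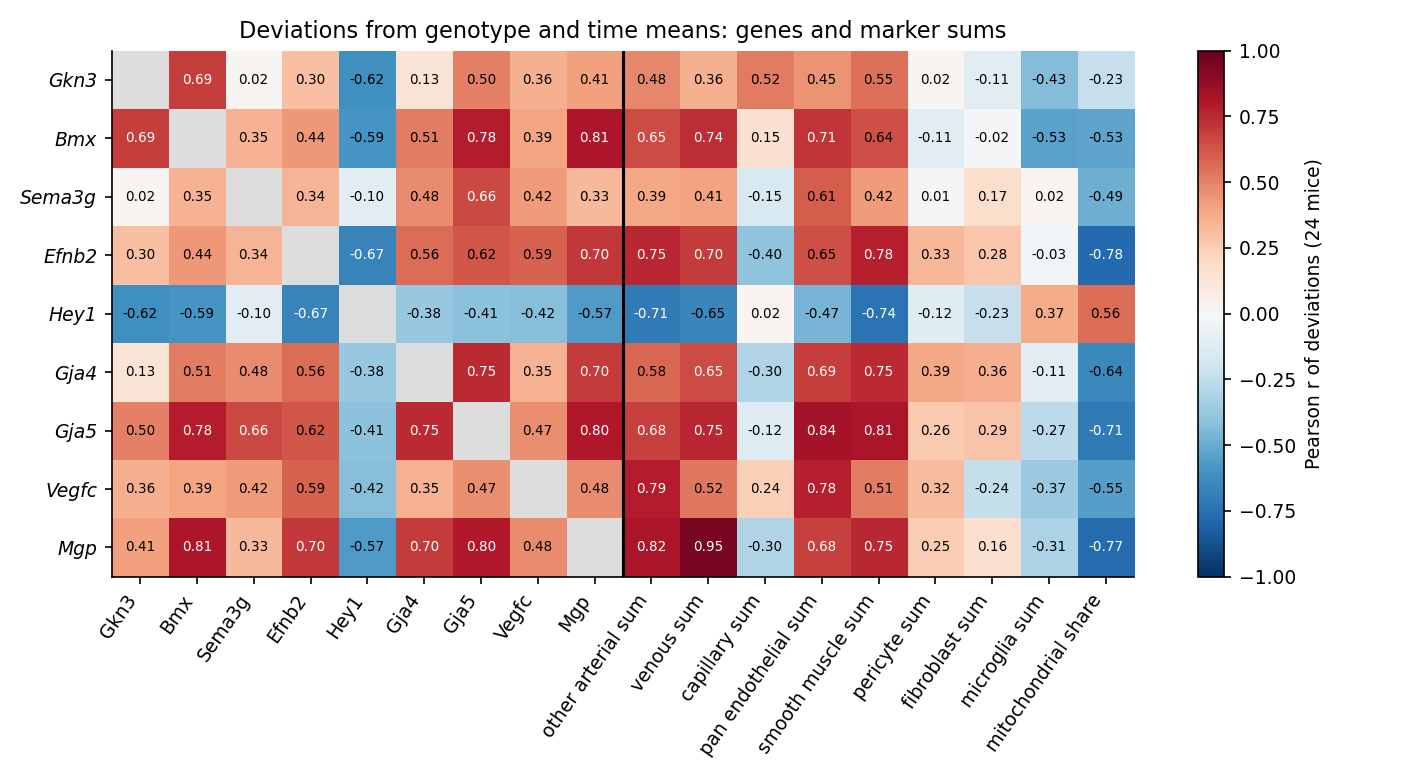
Pearson r between deviations from genotype and time means over 24 mice, for the 9 genes against each other (left of the black line) and against summed reads of marker lists and the mitochondrial share of reads (right of it), from blue at -1 to red at 1. Gkn3 has 0.69 with Bmx and -0.62 with Hey1, and Mgp has 0.95 with the venous sum, which without the control ZT22 and mutant ZT10 mice were 0.66, -0.54 and 0.54.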

How the data were processed

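Endothelial RNA of 24 mice had been sequenced as stranded paired-end libraries. The authors aligned reads to GRCm38 with STAR 2.5.3a, merged lanes with SAMtools 1.3.1, and counted Ensembl genes with PORT, which resamples libraries to similar totals, and they deposited whole-number counts. The original depth is therefore not in the values, and counting error can be judged only from the normalized reads. Groups came from the sample labels, and nothing states that replicate numbers link mice.

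The study's filter was used, a minimum of 5 reads in 6 or more mice of a genotype. Genotype was tested with edgeR 4.0.16 (TMM, quasi-likelihood F test, time point as a factor) in R 4.3.3, with Benjamini-Hochberg adjustment over all 15493 genes kept. DESeq2 1.42.0 was an alternative. Standard errors are the fold change over the root of F, and 95% intervals use the test's degrees of freedom. meta2d was rewritten in Python 3.11.15. Both were tested on simulated counts, where edgeR recovered 59.0% of 200 genes changed 2-fold between genotypes among 15493, with 1.67% of calls false, 29.5% of rhythms of relative amplitude 0.8 present in controls only, and 44.0% of 4-fold differences between ZT6 and ZT18 mice and the rest. meta2d gave 94.5% of 200 rhythmic genes of that amplitude an unadjusted p under 0.05, at a simulated dispersion of 0.09, below the 0.179 of the data. Reads per kilobase use the merged exon length in GENCODE M21.

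The members, lists and tests were chosen with earlier results of these data known. Named beside the members are called genes of the wider arterial list, its 3 smallest p-values on each side, the 5 genes most like Gkn3 and the targeted gene. Marker lists of 12 cell types were summed per library and counted in the genotype test. Alternatives were other scalings, filters and tests, the replicate block, the i5 index, subsets of times and each mouse left out. The 2 libraries of each genotype and time differed by more than counting noise. P-values measure the spread between single mice, and in the edgeR genotype and cosinor fits that spread also holds departures from the model. Such departures are genotype differences that change with time and time means off the cosine.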

Additional observations from a re-analysis of the deposited data

How the results depend on the processing

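The count of 0 called among the 8 members other than Gkn3 held under the 13 other alternatives of the genotype test and with each of the 24 mice left out. Counts of 0 of 9 members also held under 2 alternatives and 12 left-out mice (edgeR cosinor only) for the rhythm in each genotype, 3 alternatives and 24 left-out mice for the rhythm difference, and 2 alternatives for ZT6 and ZT18 mice against the rest. These counts say little about the members, since almost no gene was called in these comparisons. In the main fits meta2d and the last 2 comparisons called no gene. The cosinor called 14 of 15493 genes in controls and 0 in mutants. The lowest adjusted p of Sema3g was 0.0667, without mutant ZT6 replicate 1. The Gkn3 log2 fold change lay between -2.39 and -1.94 with a mouse left out and between -2.48 and -1.85 otherwise. Among the 22 other arterial genes, 0 were called with the i5 index as a covariate, within ZT6 and ZT18 mice and within ZT14 and ZT22 mice, and 2 with no filter and by DESeq2 (Fbln2 the second), with 1 to 2 when a mouse was left out. Over all genes, 42 calls became 99 by DESeq2, 141 with no filter, 7 with the i5 index, 3 within ZT6 and ZT18 and 2 within ZT14 and ZT22 mice, where fewer mice were tested, and 25 to 68 with a mouse left out (68 without mutant ZT6 replicate 1 and 25 without mutant ZT6 replicate 2). The replicate block gave 45 calls and 0 members, and changed no other call. Same-numbered mice did not deviate together (r from -0.0082 to 0.0158).

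Signs of the small differences were not stable, and the cause was not tested. Hey1 was at -0.0027 with DESeq2 size factors, -0.00083 with no filter, -5.1e-05 with the replicate block and -0.0026 by DESeq2. It was at -0.019 within ZT6 and ZT18 and -0.011 without both low libraries. The highest Hey1 value among the alternatives was 0.23, and with a mouse left out Hey1 was at -0.069 to 0.074. Gja4 was at 0.020 within ZT6 and ZT18. Gja5 was at -0.024 with the i5 index, -0.14 within ZT14 and ZT22 and -0.045 to 0.25 with a mouse left out. Mgp was at 0.024 with the i5 index, 0.073 within ZT14 and ZT22 and -0.31 to -0.065 with a mouse left out. Sizes moved too where signs held, with Efnb2 at 0.043 to 0.15 and Gja4 at -0.26 to -0.11 with a mouse left out. Depth limits the low values, such as Gkn3 at 5 to 38 reads in mutants.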
